A study of Mus musculus with 12 samples.

Results

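The receptor chains and Janus kinases through which interleukin 4 signals were measured by 9 of the 55681 probes on mouse expression arrays, for 7 genes. A probe was a member where the RefSeq transcript that names it belonged to Il4ra, Il13ra1, Il2rg, Jak1, Jak2, Jak3 or Tyk2. Il4ra and Jak3 had 2 probes each and the other genes 1 each. All 9 lay well above background on all 12 arrays, and none was saturated.

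The cells were peritoneal macrophages from wild-type C57BL/6 mice, labelled WT, aged 8 weeks, freed of non-adherent cells and kept overnight without serum. Cells received IL4 at 10 ng/ml with emodin, an anthraquinone found in rhubarb, at 50 µM, or IL4 at 10 ng/ml alone, or the control vehicle, with 4 arrays in each group. The sample descriptions put the treatment at 6 h and the treatment protocol calls it overnight, and the series' design text names peripheral white blood cells where the samples name peritoneal macrophages; neither point could be settled here. No label says whether an array held RNA of 1 mouse or of a pool, and the p-values rest on array-to-array spread that may be technical in part.

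IL4 binds the alpha chain encoded by Il4ra, which then recruits a second chain. In the type I receptor that second chain is the common gamma chain, Il2rg, and in the type II receptor, which also binds IL13, it is Il13ra1. Each chain carries a Janus kinase on its cytoplasmic tail: Jak1 on the alpha chain, Jak3 on the common gamma chain, and Tyk2 or Jak2 on Il13ra1. The kinases phosphorylate the receptor and the transcription factor Stat6, which drives the alternative activation programme of macrophages.

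Values are log2 intensity minus the 75th percentile of the array, so that 0 is the 75th percentile and a step of 1 is a doubling. They compare a probe between arrays and not 1 probe with another. Of the 11 macrophage markers with a probe, 9 lay above background on all 4 IL4 plus emodin arrays, 10 on all 4 IL4 arrays and 10 on all 4 control arrays. Of 7 mesothelial and fibroblast markers, 7, 7 and 6 did so in the same groups, and of 7 mast cell markers 4, 5 and 2. The mesothelial and fibroblast intensities summed to 20.2 to 94.1, 15.9 to 79.4 and 14.4 to 66.6 multiples of the 75th percentile. The part of these cells in the member values was not tested. The 75th percentile itself was 488 ± 31.4 intensity units on IL4 plus emodin arrays, against 776 ± 24.5 on IL4 arrays and 730 ± 74.0 on control arrays (SD, n = 4 each; exact permutation p = 0.0286 for IL4 plus emodin against each of the others, the smallest that 4 arrays against 4 allow). The IL4 plus emodin arrays had a slide to themselves, and emodin and slide cannot be told apart. The arrays of IL4 alone lay in slide row 1, and the control and IL4 plus emodin arrays in row 2. IL4 against control is thus also a comparison of rows, and IL4 plus emodin against IL4 one of rows as well as slides. A row effect would enter these comparisons with opposite signs, and it was not tested. IL4 plus emodin and control shared a row but not a slide. In bulk RNA of this kind, fewer cells of a type and less RNA per cell cannot be told apart.

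Replicates 1 and 2 of every group are labelled female and replicates 3 and 4 male. The arrays went against these labels: 5 probes of 4 Y-linked genes (Ddx3y, Eif2s3y, Kdm5d and Uty) lay above background on 0 of 12 arrays, and 7 probes of Xist, the RNA of the inactive X chromosome, lay above background on all 12. One of these Xist probes had a median of 0.48 over the 6 arrays labelled female and 0.31 over the 6 labelled male. Il13ra1 and Il2rg are X-linked, and member differences are therefore also given within each labelled sex below.

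The differences between groups were fitted with limma over 27705 probes, those well above background throughout 1 or more of the 3 groups, and a probe was called at an adjusted p under 0.05. In IL4 against control, 3 of the 9 member probes were called, 2 higher and 1 lower, where 16.7% of all probes tested were called. In IL4 plus emodin against IL4, 4 of 9 were called, 1 higher and 3 lower, against 65.7% of all probes. In IL4 plus emodin against control, 6 of 9 were called, 2 higher and 4 lower, against 62.8% of all probes. The groups did not overlap for 5, 3 and 5 of the 9 member probes in these comparisons in turn, where 24%, 60.2% and 53.8% of all probes did not overlap. With so many probes called in the comparisons with emodin, the member counts there say little, and the size and direction of each member are given instead.

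**Figure D1:**
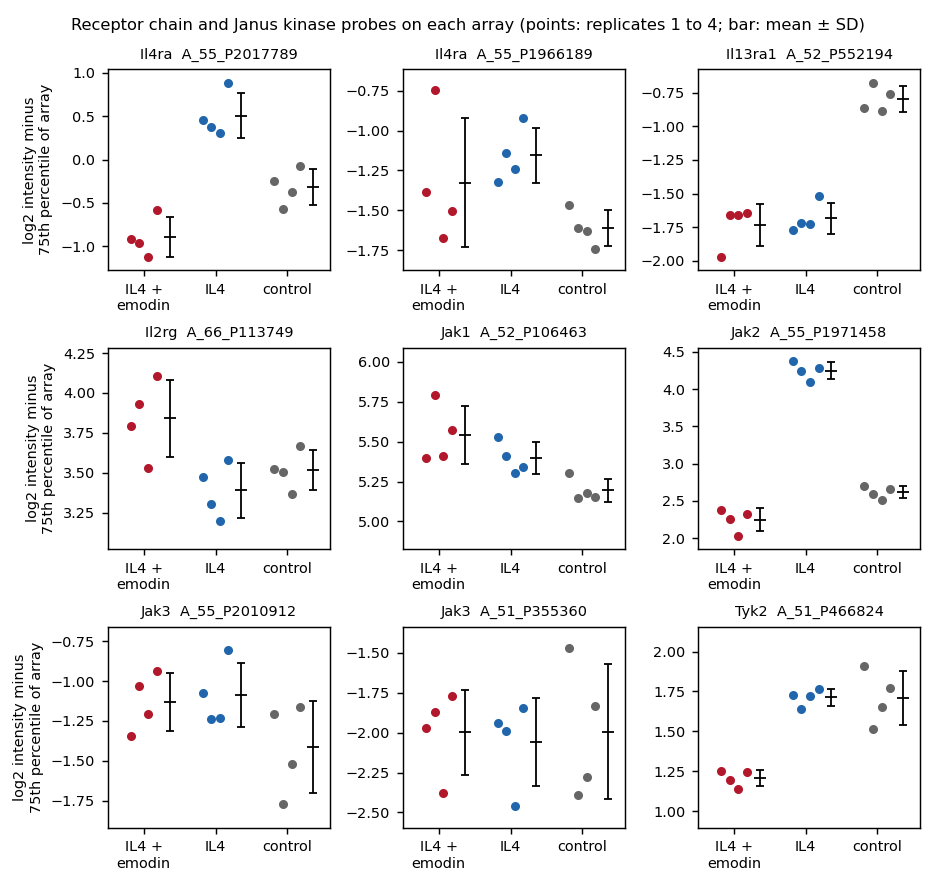
Log2 intensity minus the 75th percentile of the array for each of the 9 member probes, with IL4 plus emodin, IL4 and control from left to right. Points are arrays, bars are the mean ± SD of 4 arrays, and each panel has its own range on the vertical axis. The 4 IL4 arrays stand above all others for Jak2 and for Il4ra A_55_P2017789, the 4 control arrays stand above all others for Il13ra1, and the 4 IL4 plus emodin arrays stand below all others for Tyk2.

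Il4ra encodes the chain that binds IL4 in both receptor types and lies at chr7:125552271-125579474 (GRCm38.p6). Its brighter probe, A_55_P2017789, was higher with IL4 alone than in control cells and lowest when emodin was added. The probe read -0.92, -0.96, -1.12 and -0.58 on the IL4 plus emodin arrays, 0.46, 0.38, 0.31 and 0.89 on the IL4 arrays, and -0.25, -0.57, -0.38 and -0.08 on the control arrays. The 3 groups did not overlap, but the highest IL4 plus emodin array (-0.577) and the lowest control array (-0.575) nearly met. IL4 cells exceeded control cells 1.78-fold (log2 difference 0.83 ± 0.15 SE, adjusted p = 0.00293). With emodin the probe was 2.64-fold lower than with IL4 alone (-1.40 ± 0.15, adjusted p = 8.66e-06) and 1.49-fold lower than in control cells (-0.57 ± 0.15, adjusted p = 0.00661). With spike-in scaling, which sets each array to its added control RNAs, these became -2.48 and -1.52.

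The other Il4ra probe, A_55_P1966189, is listed under the same transcript, NM_001008700. It read -1.38, -0.75, -1.67 and -1.51 on the IL4 plus emodin arrays, -1.32, -1.14, -1.24 and -0.92 on the IL4 arrays, and -1.47, -1.61, -1.63 and -1.74 on the control arrays. IL4 and control arrays did not overlap, but the difference of 0.46 was not called (95% interval 0.08 to 0.83, adjusted p = 0.0956), and the IL4 plus emodin arrays overlapped both other groups. With the compared groups fitted alone, the same difference of 0.46 was called (adjusted p = 0.0168). The difference between IL4 plus emodin and IL4 was -0.17 (-0.55 to 0.20, adjusted p = 0.393). Without IL4 plus emodin replicate 2, the array at -0.75, that difference was -0.36 with an adjusted p of 0.0163, and with spike-in scaling it was -1.25 (adjusted p = 8.85e-05). The change in the brighter probe relative to the other one was -1.23 between IL4 plus emodin and IL4, with an exact permutation p of 0.0286 that did not pass adjustment over the 6 tests of this kind (adjusted p = 0.0857). Where on the transcript each probe binds was not analysed here.

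The 250 bases before the start of Il4ra are shown because its brighter probe and Jak2 moved the same way in all 3 comparisons. They are printed from RefSeq's GRCm38.p6 annotation, plus strand, chr7:125552021-125552270, with capitals marking matches of the octamer-like motif ATGNAAAT and of GGGCGG, the core of the GC box.
Il4ra: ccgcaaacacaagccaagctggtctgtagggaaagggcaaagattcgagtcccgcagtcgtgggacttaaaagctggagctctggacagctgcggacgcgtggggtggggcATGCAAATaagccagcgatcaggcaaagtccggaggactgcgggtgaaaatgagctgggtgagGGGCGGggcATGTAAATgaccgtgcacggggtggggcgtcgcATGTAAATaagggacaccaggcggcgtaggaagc
In all, 4 motifs were searched on both strands in this window for all 7 members. No match overlapped a match of another motif in the sequences printed here. The windows of Jak1 (chr4:101265224-101265473) and Tyk2 (chr9:21131276-21131525), both on the minus strand, reach into the gene spans given below. Their start sites thus lie inside those spans. Neither TTCNNNGAA, the palindrome most STAT proteins bind, nor TTC and GAA with 4 bases between them, the longer spacing that Stat6 favours, occurs in the window of any of the 7 genes, while 7.02% and 5.85% of 32851 mouse promoters of this length hold them. ATGNAAAT occurs 3 times before Il4ra, starting 139, 67 and 34 bases before the start site. Of all promoters, 5.03% hold it at least once, and 12 (0.0365%) hold it 3 times or more. ATGNAAAT and GGGCGG were chosen after these sequences had been seen.

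Il13ra1, the second chain of the type II receptor, lies at chrX:36112108-36171262. It was lower in both IL4-treated groups than in control cells, with or without emodin. Probe A_52_P552194 read -1.97, -1.66, -1.66 and -1.65 on the IL4 plus emodin arrays, -1.77, -1.72, -1.73 and -1.52 on the IL4 arrays, and -0.86, -0.68, -0.88 and -0.76 on the control arrays. Both IL4-treated groups lay wholly below control. The difference was -0.89 ± 0.10 (SE) for IL4 against control, or 1.85-fold lower (adjusted p = 5.00e-05), and -0.94 ± 0.10 for IL4 plus emodin against control, or 1.92-fold lower (adjusted p = 4.59e-06). Between IL4 plus emodin and IL4 the difference was -0.05 (95% interval -0.26 to 0.16, adjusted p = 0.649). With spike-in scaling that last difference was -1.13 (adjusted p = 1.63e-05), in the direction of the median of all probes, which this scaling moved by -1.08. The difference against control with emodin was -1.89 under that scaling.

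Il2rg, the common gamma chain that the receptors for several interleukins share, lies at chrX:101264385-101268255. Probe A_66_P113749 read 3.79, 3.93, 3.53 and 4.11 on the IL4 plus emodin arrays, 3.48, 3.30, 3.20 and 3.58 on the IL4 arrays, and 3.52, 3.51, 3.37 and 3.67 on the control arrays. The 3 groups overlapped. The difference between IL4 and control cells was not called (-0.13, 95% interval -0.41 to 0.15, adjusted p = 0.566). With emodin the probe was 1.37-fold higher than with IL4 alone (0.45 ± 0.13 SE, adjusted p = 0.00802) and 1.25-fold higher than in control cells (0.32 ± 0.13, adjusted p = 0.0425). Of all tested probes, 44.7% and 35.4% moved no more than this in the same comparisons. Both directions of Il2rg turned with spike-in scaling, to -0.63 against IL4 (adjusted p = 0.00640) and -0.63 against control (adjusted p = 0.00700). The call against control was also lost with quantile scaling (0.23, adjusted p = 0.165) and on leaving out IL4 plus emodin replicate 1, 2 or 4 or control replicate 1, 2 or 3. Over the 8 arrays left out in turn, the adjusted p ranged from 0.00854 to 0.124.

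Il2rg and Jak3 are abundant in lymphocytes, so T and NK cell markers are given beside them. Of 11 such markers, 3 lay above background on all 4 IL4 plus emodin arrays, 3 on all 4 IL4 arrays and 4 on all 4 control arrays, among them Cd3e, Lck and Cd4 in every group. Cd3d, Cd3g, Cd8a, Cd8b1 and Ncr1 lay above background on none of the 12. The summed intensity of the list ranged from 7.95 to 17.9 multiples of the 75th percentile on IL4 plus emodin arrays, from 7.56 to 8.18 on IL4 arrays and from 9.44 to 9.91 on control arrays. Cd4 (2.62, 2.36 and 2.33) and Cd3e (1.93, 0.90 and 1.85) had the highest means in these groups, and the sums largely follow them. B cell markers are given as well. Of 7, 2 lay above background on all 4 IL4 plus emodin arrays, 4 on all 4 IL4 arrays and 4 on all 4 control arrays. Their summed intensity ranged from 0.49 to 0.69 multiples with IL4 plus emodin, 1.31 to 2.28 with IL4 and 1.16 to 2.49 in control cells. Cd79b had the highest mean of the B cell list in each group (-1.82, 0.35 and 0.22). The part of either list in the Il2rg and Jak3 values was not tested.

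Jak3, the kinase that the common gamma chain carries, lies at chr8:71676383-71690577 and had 2 probes with different transcripts. Neither was called in any comparison. The brighter, A_55_P2010912 for NM_001190830, read -1.34, -1.03, -1.21 and -0.94 on the IL4 plus emodin arrays, -1.07, -1.23, -1.23 and -0.81 on the IL4 arrays, and -1.20, -1.77, -1.52 and -1.16 on the control arrays. Its difference was 0.33 for IL4 against control (95% interval 0.00 to 0.66, adjusted p = 0.176), -0.04 for IL4 plus emodin against IL4 (-0.38 to 0.29, adjusted p = 0.812) and 0.28 for IL4 plus emodin against control (-0.05 to 0.62, adjusted p = 0.121). A_51_P355360, for NM_010589, read -1.97, -1.87, -2.38 and -1.77 with IL4 plus emodin, -1.94, -1.99, -2.46 and -1.85 with IL4, and -1.47, -2.39, -2.28 and -1.83 in control cells. Its differences were -0.07, 0.06 and -0.01 in the same comparisons, with adjusted p of 0.881, 0.813 and 0.985. All groups overlapped for both probes. With spike-in scaling both probes were called lower with emodin than with IL4 (-1.12 and -1.02).

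Jak1, the kinase of the alpha chain, lies at chr4:101151974-101265282. Probe A_52_P106463 read 5.40, 5.79, 5.41 and 5.58 on the IL4 plus emodin arrays, 5.53, 5.41, 5.30 and 5.34 on the IL4 arrays, and 5.30, 5.15, 5.18 and 5.15 on the control arrays. Every IL4 array lay above every control array, by a narrow margin, and the difference of 0.20 was not called (95% interval -0.01 to 0.41, adjusted p = 0.196). IL4 plus emodin differed from IL4 by 0.15 (-0.06 to 0.36, adjusted p = 0.192). IL4 plus emodin was 1.27-fold higher than control (0.35 ± 0.10 SE, adjusted p = 0.00762), a call that quantile scaling lost (0.13, adjusted p = 0.282) and that spike-in scaling reversed (-0.60, adjusted p = 0.000804). Of all tested probes, 37.9% moved no more than Jak1 in that comparison.

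Jak2, one of the kinases that bind Il13ra1 and the kinase of many other cytokine receptors, lies at chr19:29251803-29313095 and had the largest differences among the members in IL4 against control and in IL4 plus emodin against IL4. Probe A_55_P1971458 read 2.38, 2.26, 2.03 and 2.32 on the IL4 plus emodin arrays, 4.37, 4.24, 4.09 and 4.29 on the IL4 arrays, and 2.70, 2.59, 2.51 and 2.65 on the control arrays. In plain intensity these were 1831 to 2643 units with IL4 plus emodin, 13071 to 16804 with IL4 and 3981 to 5243 in control cells. No groups overlapped. IL4 cells exceeded control cells by 1.63 ± 0.09 (SE, adjusted p = 2.74e-07), which ranked 346 among the 27705 probes by size of rise. With emodin the probe was 4.00-fold lower than with IL4 alone (SE 0.09 on the log2 scale, adjusted p = 8.15e-09), ranking 559 by size of fall, and 1.29-fold lower than in control cells (-0.37 ± 0.09, adjusted p = 0.00444). With spike-in scaling the log2 differences were -3.08 against IL4 and -1.32 against control.

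The same window before Jak2, chr19:29251553-29251802 on the plus strand (RefSeq, GRCm38.p6), is shown for comparison with that of Il4ra, with GGGCGG and its reverse complement in capitals.
Jak2: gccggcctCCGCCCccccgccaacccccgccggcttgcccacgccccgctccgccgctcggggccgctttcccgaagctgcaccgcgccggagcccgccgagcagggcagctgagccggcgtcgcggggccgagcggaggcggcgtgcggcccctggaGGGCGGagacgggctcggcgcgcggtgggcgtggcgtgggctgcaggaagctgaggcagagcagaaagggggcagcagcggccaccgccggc
It holds 2 matches of GGGCGG, against 1 before Il4ra, and none of ATGNAAAT. GGGCGG occurs in 32.7% of promoters of this length. The window is 80.8% G and C with 37 CG dinucleotides, where the medians over all promoters are 52.4% and 6, and that of Il4ra is 59.6% with 17.

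Tyk2, the other kinase that binds Il13ra1, lies at chr9:21104068-21131393. It was lower with emodin than in either other group, and its difference between IL4 and control cells was not called. Probe A_51_P466824 read 1.25, 1.20, 1.14 and 1.24 on the IL4 plus emodin arrays, 1.73, 1.64, 1.72 and 1.76 on the IL4 arrays, and 1.91, 1.51, 1.65 and 1.77 on the control arrays. All IL4 plus emodin arrays lay below all others, while IL4 and control arrays overlapped. IL4 plus emodin was 1.42-fold lower than IL4 (-0.51 ± 0.09 SE, adjusted p = 0.000280) and 1.42-fold lower than control (-0.50 ± 0.09, adjusted p = 0.000313). With spike-in scaling these were -1.58 and -1.45. Of all tested probes, 49.6% moved no more than Tyk2 against IL4, and 53.0% no more than it against control. IL4 against control gave 0.00 with a 95% interval from -0.19 to 0.19 (adjusted p = 0.990).

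**Figure D2:**
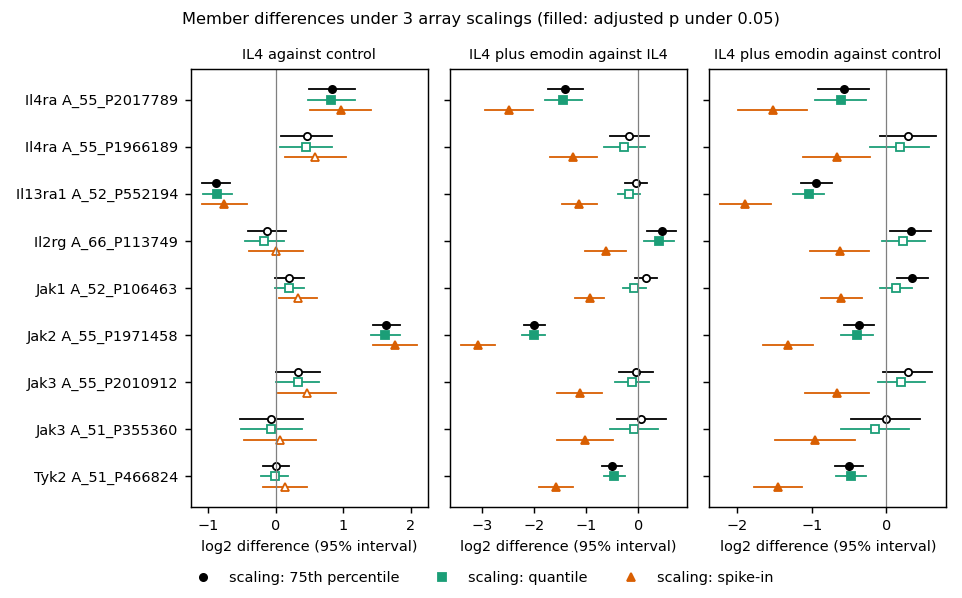
Log2 differences of the 9 member probes with 95% intervals in the 3 comparisons, under scaling to the 75th percentile (circles), quantile scaling (squares) and spike-in scaling (triangles), with filled symbols where the adjusted p was under 0.05. Spike-in scaling placed all 9 probes lower in IL4 plus emodin than in IL4. Jak2, Tyk2 and Il4ra A_55_P2017789 were called lower there under all 3 scalings, and Il2rg was higher with the first and second and lower with the third.

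The scalings disagree on how far all probes moved with emodin. The median of all tested probes differed between IL4 plus emodin and IL4 by 0.17 with the 75th percentile, by 0.03 with quantile scaling and by -0.91 with spike-in scaling. In that comparison 10997 probes were called higher and 7206 lower, against 8447 and 8395 with quantile scaling and 1095 and 22031 with spike-in scaling. For IL4 plus emodin against control the calls were 10479 higher and 6921 lower, against 7739 and 8176 with quantile scaling and 1301 and 20603 with spike-in scaling. For IL4 against control they were 2393 and 2226, against 2348 and 765 with spike-in scaling. The 6 spike-in probes were themselves brighter on IL4 plus emodin arrays, with a mean log2 intensity of 12.02 (11.96 to 12.17). It was 11.62 (11.32 to 11.86) on IL4 arrays and 11.65 (11.40 to 11.86) on control arrays. Emodin and slide cannot be told apart in this reference either. Member directions in the comparisons with emodin are therefore relative to the array's 75th percentile, and the within-array ratios that follow are the same under the 75th percentile and spike-in scalings, which shift a whole array, but can move with quantile scaling.

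For 8 pairs of members, the log2 ratio of their probes was taken within each array and compared between groups, which shows unequal change and no level. Brightest probes were used, and the 24 exact permutation tests, which share arrays and genes, were adjusted together. Of these, 17 passed, each with a p of 0.0286 and an adjusted p of 0.0403. That p is the smallest that 4 arrays against 4 allow, so the adjusted p rests on how many tests reached it. How many pairs of other probes would pass was not tested. Among single probes, the groups did not overlap for 24% in IL4 against control. The shares were 60.2% in IL4 plus emodin against IL4 and 53.8% in IL4 plus emodin against control. The count of passing pairs therefore does not set the members apart. Between IL4 and control cells, Il4ra gained on Il13ra1 by 1.72 and on Il2rg by 0.96, while Il13ra1 over Il2rg changed by -0.76. Each held in all 4 replicate numbers and passed. Between IL4 plus emodin and IL4, Il4ra changed relative to Il13ra1 by -1.35 and to Il2rg by -1.85, and both passed. IL4 plus emodin and control cells differed in Il13ra1 over Il2rg by -1.26 and in Il4ra over Il2rg by -0.90, which passed, and in Il4ra over Il13ra1 by 0.37, which did not (adjusted p = 0.137).

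Among the kinases, Jak2 changed unequally with each of the others when IL4 was compared with control. The Jak2 over Jak1 ratio was higher by 1.43, the Jak2 over Tyk2 ratio by 1.63 and the Jak2 over Jak3 ratio by 1.30. In IL4 plus emodin against IL4 the same ratios changed by -2.15, -1.49 and -1.96, and all 6 changes passed. Jak2 over Tyk2 differed between IL4 plus emodin and control by 0.14 (adjusted p = 0.163), whereas Jak2 over Jak1 differed by -0.71 and Jak2 over Jak3 by -0.65, both past the threshold. Tyk2 over Jak1 was lower in IL4 plus emodin than in IL4 (-0.65) and than in control (-0.85), and both passed, as they did with quantile scaling (-0.39 and -0.60). Its difference between IL4 and control was -0.20 (adjusted p = 0.137). Jak3 over Jak1 passed in none of the 3 comparisons (0.13, -0.19 and -0.06, with adjusted p of 0.507, 0.249 and 0.657).

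**Figure D3:**
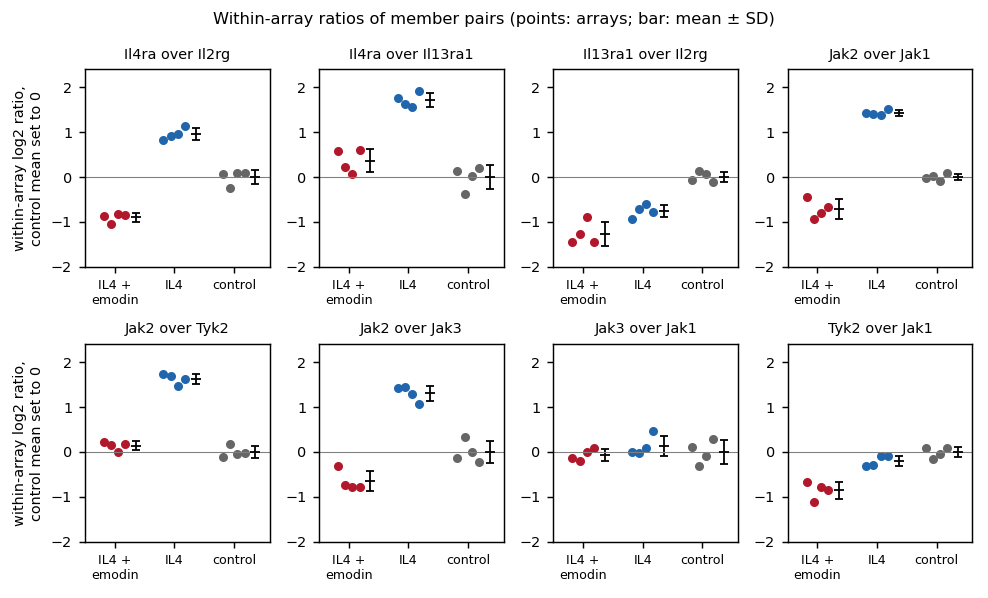
Within-array log2 ratios of 8 member pairs, shifted so that the control mean is 0, for IL4 plus emodin, IL4 and control from left to right. Points are arrays and bars the mean ± SD of 4 arrays. Jak2 over Jak1 stands 1.43 above control in IL4 cells and 0.71 below it with emodin added, while Jak2 over Tyk2 with emodin lies within 0.14 of control on average.

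Within the arrays labelled female and those labelled male, every called member difference had the same sign. Jak2 differed between IL4 and control by 1.66 and 1.61 in the 2 labelled sexes, and between IL4 plus emodin and IL4 by -1.98 and -2.01. The X-linked Il13ra1 differed between IL4 and control by -0.98 on arrays labelled female and -0.80 on those labelled male. Il4ra A_55_P2017789 gave 0.83 and 0.83 in that comparison, and -1.36 and -1.45 for IL4 plus emodin against IL4. Tyk2 gave -0.46 and -0.55 for IL4 plus emodin against IL4. Comparing labelled sexes, limma called 0 of 27705 probes (2434 at an unadjusted p under 0.05), and the test of a sex difference called 0 in the response to IL4 (355 unadjusted) and 0 in the response to emodin (695 unadjusted). The background share was 0% in each. The smallest unadjusted p of a member was that of Il4ra A_55_P1966189 for the response to emodin (0.0487, adjusted p = 1.00), with 0.16 on arrays labelled female and -0.51 on those labelled male.

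Around the receptor, 86 genes in 5 lists were followed, 76 of which had a tested probe, taking the brightest probe of each gene. The lists hold ligands and the decoy receptor, transducers of the IL4 signal, and partners of the common gamma chain. They also hold inhibitors, phosphatases and adaptors of Janus kinase signalling, and other receptor chains that couple to these kinases. In IL4 against control, 19 of the 76 were called higher and 8 lower, where 8.64% and 8.03% of all probes were called in these directions. Their median was 0.06, against -0.03 over all probes. In IL4 plus emodin against IL4, 24 were called higher and 29 lower, against 39.7% and 26% of all probes, with a median of -0.02 against 0.17. Relative to control, 33 were higher and 20 lower with IL4 plus emodin, against 37.8% and 25%, with a median of 0.19 against 0.16. The same shares belong beside the counts of the single lists below. With spike-in scaling, 1095 of all 27705 probes were called higher and 22031 lower in IL4 plus emodin against IL4. Against control these were 1301 and 20603.

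Among inhibitors, phosphatases and adaptors of Janus kinase signalling, more genes were called higher than lower with IL4. Of 22 tested, 9 were called higher and 1 lower in IL4 against control, with a median of 0.29. The 9 include the adaptor Sh2b2 (0.31). The feedback inhibitor Cish rose by 8.90, its relatives Socs1 by 4.88 and Socs2 by 3.99, and the ubiquitin ligase Cblb by 1.23. Socs2 lay above background on 1 of 4 control arrays. With emodin added to IL4, 7 were called higher and 10 lower (1 and 18 with spike-in scaling), with a median of -0.13. The log2 difference was -4.49 for Socs1, -2.77 for Cish, -2.28 for Socs2 and -1.61 for Inpp5d, the inositol phosphatase SHIP-1 (-2.69 with spike-in scaling). Against control, 13 were higher and 6 lower in IL4 plus emodin (4 and 14 with spike-in scaling). There Cish stood 6.13 higher, Socs3 2.60 and Socs2 1.70 (1.65 for Socs3 and 0.75 for Socs2 with spike-in scaling), while Ptpn6, the phosphatase SHP-1, differed by -2.22.

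Of 22 transducers tested, 1 was called higher and 4 lower in IL4 against control (3 and 5 with the replicate number as a block). The phosphoinositide kinase subunits Pik3cb and Pik3cd differed by -0.72 and -0.63, the adaptor Dok1 by -0.34 and the regulatory subunit Pik3r2 by 0.37. Pik3cd and Dok1 lost their call with spike-in scaling. Stat6 was not called (-0.14, adjusted p = 0.266). With emodin added to IL4, 8 were higher and 8 lower (2 and 18 with spike-in scaling), with differences of 4.21 for the docking protein Gab2, -2.69 for the adaptor Dok2, -1.77 for Pik3cd, 1.63 for the adaptor Stam and -0.998 for Stat6. With spike-in scaling Stam stood at 0.55, Stat6 at -2.08 and Pik3cd at -2.85. Against control the count with emodin was 7 higher and 8 lower (2 and 15 with spike-in scaling), with 3.77 for Gab2, -2.52 for Dok2, -2.40 for Pik3cd, 1.68 for Stam (0.73 with spike-in scaling) and -1.14 for Stat6 (-2.09).

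Of the other receptor chains that use Janus kinases, 9 of 28 were called higher and 3 lower in IL4 against control (9 and 2 with spike-in scaling). Il31ra, a receptor chain for IL31, was at least 21.3-fold higher with IL4 on its brighter probe, which lay above background on 4 of 4 IL4 arrays and 0 of 4 control arrays. Its other probe, above background on the same numbers of arrays, had a smaller measured log2 difference of 3.25. Il6st, the shared chain gp130, rose by 1.64 and Il20rb by 1.51, while the leptin receptor Lepr differed by -0.80. With emodin added to IL4, 7 were higher and 10 lower, against 39.7% and 26% of all probes. These counts were 5 and 15 with quantile scaling, and 0 and 24 with spike-in scaling, where 22031 of all 27705 probes were called lower. Il31ra was at least 14.4-fold lower on its brighter probe (measured log2 difference -2.23 on the other), the IL6 receptor chain Il6ra differed by -3.08 and Il20rb by -2.74. The interferon receptor chain Ifnar2 was 1.22 higher, but 0.14 with spike-in scaling (adjusted p = 0.296). Against control, 10 were higher and 5 lower in IL4 plus emodin (4 and 6 with quantile scaling, 2 and 24 with spike-in scaling), with -2.81 for Il6ra, 1.37 for Il6st, 1.29 for Ifnar2 and -1.23 for Il20rb. With spike-in scaling Il6st was at 0.42 (adjusted p = 0.0204), Ifnar2 at 0.33 (adjusted p = 0.0266) and Il20rb at -2.18.

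Of 6 chains that partner the common gamma chain, 3 were tested, and 0 of these were called in IL4 against control. When emodin was added to IL4, Il7r was called higher by 1.06 (with spike-in scaling, -0.020 and adjusted p = 0.901) and Il21r lower (-2.03, or -3.11 with spike-in scaling), which lay above background on 1 of 4 IL4 plus emodin arrays and 4 of 4 IL4 arrays. Against control, Il7r was 0.99 higher with emodin (0.036 with spike-in scaling, adjusted p = 0.821) and Il21r differed by -1.57 (-2.52 with spike-in scaling). Il15ra was 0.58 higher there on its brighter probe and differed by -1.15 on its other probe. Spike-in scaling turned the brighter probe to -0.37 (adjusted p = 0.0721). Il4 itself was the only ligand tested. It did not pass in IL4 against control (-0.10), and with emodin it was 0.58 higher than with IL4 and 0.48 higher than in control cells, both of which turned with spike-in scaling (-0.50 and -0.47, adjusted p = 0.00980 and 0.0148).

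**Figure D4:**
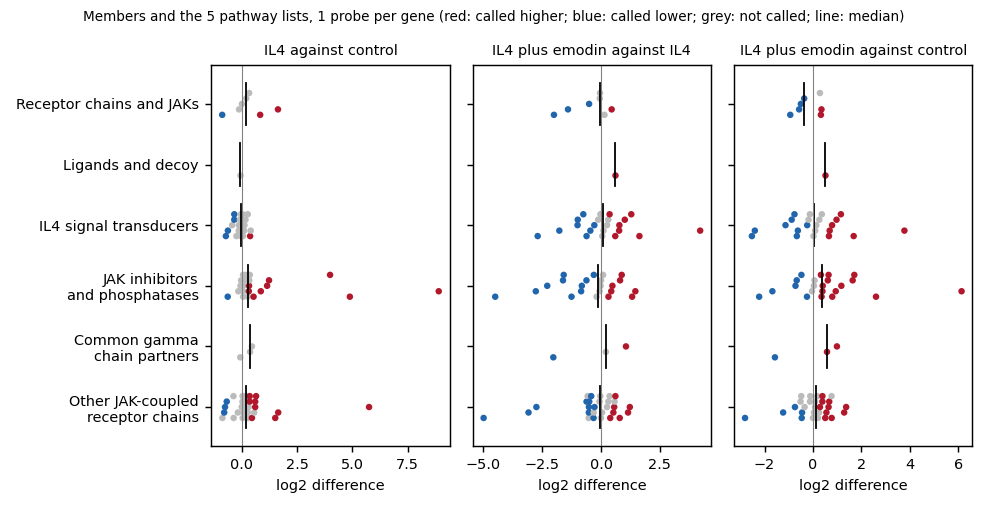
Log2 differences of the 7 members and of the tested genes of the 5 lists, 1 probe per gene, in the 3 comparisons. Each point is a gene, red where called higher, blue where called lower and grey where not called, and the vertical line is the median of the row. The horizontal ranges differ between panels. Cish at 8.90 and Il31ra stand farthest to the right in IL4 against control, and Il31ra and Socs1 farthest to the left in IL4 plus emodin against IL4, with Il31ra drawn at its fitted difference.

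The probes most like each member were found by Pearson correlation of log2 values over the 12 arrays, as a description, since all probes share the arrays and 3 groups. Jak2 was most like Klf4 (r = 0.995), followed by Ms4a7, Ltb4r1, Dse and Tmem268 (0.989 to 0.990). Klf4 differed by 1.53 between IL4 and control and by -1.91 between IL4 plus emodin and IL4. Il4ra was most like Abcg3 (0.980), followed by Btbd2, Lair1, Egr1 and Csf1 (0.972 to 0.978). Csf1 differed by 1.52 and -2.50 in the same comparisons. For Il13ra1 the nearest were Trim16 (0.985), Mif4gd, Zfp275, Ydjc and M1ap, and for Tyk2 they were Wdr81 (0.984), Cemip2, Hook3, Atp11a and Dag1. The likeness was weaker for Jak1, led by Smcr8 (0.954), for Il2rg, led by P3h3 (0.946), and for Jak3, led by Sec31a (0.896).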

How the data were processed

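Total RNA of 12 samples was labelled with Cy3 and hybridised to 1-colour Agilent arrays. The deposited scanner files hold spot intensity with background subtracted, written by Agilent Feature Extraction 10.7.3.1, per the file headers. The authors' deposited value table holds log2 values, which matched quantile-normalized scanner values centred on each probe's median (r = 1.00 on every array) and served as an alternative.

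Control and outlier-flagged spots were left out, spots of a probe averaged, and log2 intensity set relative to each array's 75th percentile. Unversioned transcript accessions gave 27509 of 55681 probes 1 symbol through RefSeq (GRCm38.p6), none several, and left 28172 unnamed. Of all probes, 27705 were kept. limma 3.58.1 in R 4.3.3 fitted 3 group means over 12 arrays (9 residual degrees of freedom), with two-sided moderated tests and Benjamini-Hochberg adjustment over all kept probes. For a probe below background throughout a group, the fold is a lower bound computed from the background limit. Single measures and pairs were compared with exact two-sided permutation tests. Precision is limited by 4 arrays per group. Figures were drawn with Python 3.11.15 and matplotlib 3.10.9, and the fit was tested on simulated data.

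The members and lists were chosen with earlier results of these data known. Genes named from a list were its up to 4 largest calls per comparison, and Stat6. Likeness took the 5 nearest named probes. Arrays of IL4 and control with the same replicate number deviated together (r = 0.283 to 0.495 over the 4 numbers, from the data, since no label says what a number marks). Those of IL4 plus emodin and IL4 had r between 0.0825 and 0.409, and those of IL4 plus emodin and control between 0.0543 and 0.494. On every array the replicate number was also the slide column. Replicate number and labelled sex therefore cannot be told apart from slide column. Alternatives covered scaling, background correction with normexp (offset 50, on the median spot signal), the value table, the filter, probes per gene, the samples in the fit, the replicate block, sex, moderation and leaving out each array.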

Additional observations from a re-analysis of the deposited data

Results flagged for a closer look

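One array stood apart within its group. Il13ra1 A_52_P552194 read -1.97 on IL4 plus emodin replicate 1, while the other 3 IL4 plus emodin arrays lay between -1.66 and -1.65. The gap to the nearest was 0.951 of the group's range, above Dixon's critical value for 4 arrays. Of the 27 sets of 4 arrays looked at this way, this was the only 1 past it, and chance flags about 1 in 20. Without that array the difference of Il13ra1 was 0.027 between IL4 plus emodin and IL4 (adjusted p = 0.799) and remained called between IL4 plus emodin and control, at -0.86.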

How the results depend on the processing

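Jak2 and Il4ra A_55_P2017789 in all 3 comparisons, Tyk2 in both with emodin and Il13ra1 in both against control kept their direction and call in all 20 alternatives run for each. Il2rg against control with emodin did so in 5 of 20. Directions that turned were all of differences not called under the main setting, except Il2rg and Jak1 with spike-in scaling. With quantile scaling, Tyk2 gave -0.013 in IL4 against control, and Jak1 -0.074 and Jak3 A_51_P355360 -0.083 in IL4 plus emodin against IL4; the authors' value table gave -0.013, -0.077 and -0.084, and normexp with quantile -0.059, -0.037 and -0.098. With normexp and the 75th percentile, Tyk2 gave -0.029 and, for IL4 plus emodin against IL4, Il13ra1 0.095. With spike-in scaling, IL4 against control gave 0.0012 for Il2rg and 0.063 for Jak3 A_51_P355360; IL4 plus emodin against IL4 gave -0.63 for Il2rg, -0.93 for Jak1 and -1.02 for Jak3 A_51_P355360; IL4 plus emodin against control gave -0.67 for Il4ra A_55_P1966189, -0.63 for Il2rg, -0.60 for Jak1 and -0.67 for Jak3 A_55_P2010912. The ratio of Jak3 to Jak1 in IL4 against control was -0.068 with the mean of all probes. Quantile scaling of the pair ratios, added after seeing the data, passed 19 of 24: the same 17, Il13ra1 over Il2rg in IL4 plus emodin against IL4 (-0.57) and Tyk2 over Jak1 in IL4 against control (-0.21); it turned Jak3 over Jak1 to 0.074 in IL4 plus emodin against control. The cause was not tested.

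Leaving out each array gave -0.064 to 0.069 for Tyk2 in IL4 against control; -0.20 to 0.11, -0.074 to 0.19 and -0.14 to 0.17 for Jak3 A_51_P355360 in the 3 comparisons; and, in IL4 plus emodin against IL4, -0.11 to 0.050 for Jak3 A_55_P2010912 and -0.082 to 0.027 for Il13ra1. Counts of called probes ranged over 3628 to 4771, 17179 to 17782 and 16261 to 16879.

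Keeping dim probes too, the counts were 11194, 34570 and 29791, over more probes, and with normexp and the 75th percentile IL4 against control gave 7290. Labelled sexes gave 11 with normexp, and sex differences in the responses to IL4 and to emodin 12 and 9 with dim probes kept. The replicate block changed no member's call; counts with it were 6628, 19896 and 19173. In both comparisons with emodin not all same-numbered arrays deviated together, although each correlated best with its own number (4 of 4). Paired by number, 0 of the 24 pair tests passed, since 4 pairs allow no p below 0.125. With 1 probe per gene, the dimmer probes of Il4ra and Jak3 have no value.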

Other observations

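Genes of the lists that did not pass the filter give a further view of the receptor system. Il13ra2, the decoy receptor that binds IL13, lay above background on 0 of 4 IL4 plus emodin arrays, 3 of 4 IL4 arrays and 1 of 4 control arrays. The adaptor gene Irs1 did so on 0, 1 and 0 arrays of these groups, and Sos1 on 0, 3 and 1. Il13, the second ligand of the type II receptor, and Il2ra and Il2rb, the chains that complete the IL2 receptor, lay above background on 0 of 12 arrays. These counts were not tested.

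Since the design text of the series names peripheral white blood cells, neutrophil markers were also read. Of 8 with a probe, 5 lay above background on all 4 IL4 plus emodin arrays, 6 on all 4 IL4 arrays and 6 on all 4 control arrays. Their summed intensity ranged from 39.2 to 62.0 multiples of the 75th percentile with IL4 plus emodin, from 21.3 to 32.3 with IL4 and from 29.3 to 42.0 in control cells. The macrophage markers gave 667 to 790, 721 to 815 and 658 to 670 in the same groups. These sums come from different probes and do not compare the lists with each other. Lyz2 (8.49, 8.17 and 8.31) and Csf1r (8.01, 8.56 and 7.92) had the highest means of the macrophage list, and its sums largely follow them. Fcgr1 (-1.83, 1.06 and 1.63), Icam2 (1.14, 2.73 and 2.88) and Mertk were lowest with IL4 plus emodin. Adgre1, Itgam, Lyz2 and Timd4 were highest there. Elane had the highest mean of the neutrophil list in each group (5.20, 3.94 and 4.31), and that list's sums largely follow it. Mmp8, S100a9, Camp and Mpo also had their highest means with IL4 plus emodin. S100a8 (2.67, 2.96 and 3.41), Ltf (-2.04, -1.23 and -1.04) and Retnlg were lowest there. Not all of these were above background throughout. S100a9 was so on 3, 4 and 4 arrays of the same groups, Mpo on 1, 0 and 2, and Retnlg on 0, 3 and 3.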
